A study of Mus musculus with 2 samples.

Results

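Transcripts of 10 genes of the extracellular proteolysis system were followed in cultured mouse aortic vascular smooth muscle cells (VSMCs): the matrix metalloproteinases Mmp2, Mmp3, Mmp10, Mmp13 and Mmp14, the tissue inhibitors Timp1, Timp2 and Timp3, and the ADAMTS proteases Adamts1 and Adamts5. The members were chosen by gene symbol, and all 10 of them were found among the 32285 genes of the count matrix. Primary VSMCs of C57BL/6 mice came from commercial suppliers and formed 4 groups: young cells (12 weeks of age), old cells (from mice of 58 to 78 weeks), young cells given 100 nM angiotensin II (Young + AngII) for 48 h, and old cells transfected for 48 h with siRNA against Piezo1, a stretch-gated ion channel (Old + siPiezo1, 20 nM by the labels). Whether the untreated groups received a non-targeting siRNA before this sequencing was not given in the sources used here. Each group was taken as 1 culture, because no replicate cultures are told apart, so that no test between groups is possible and the intervals given here cover counting error only.

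The 4 groups were marked with hashtag antibodies, mixed and sequenced as 1 droplet library, in which each captured transcript is counted by its unique molecular identifier (UMI). Group names follow the numbering of a schematic of the study which does not call them tags, and the assignment of tags to groups was not tested. Of 13045 cells (barcodes with at least 200 genes that passed a minimum depth), 3144 carried tag 1 (young) only, 497 tag 2 (old), 1500 tag 3 (Young + AngII) and 1529 tag 4 (Old + siPiezo1), while 5307 had no tag above its cutoff and 1068 had several. Median depth was 6816 UMIs in tag 1, 10663 in tag 2, 9453 in tag 3 and 9792 in tag 4. The median number of own tag UMIs was 364, 76.0, 113 and 67.0 for tags 1 to 4, and untagged cells held 10.0, 15.0, 31.0 and 20.0 UMIs of the same tags. Piezo1, the siRNA target, stood at 71.6 CPM (UMIs per 1000000 UMIs) in young cells (68.2 to 75.0), 89.6 (82.0 to 97.9) in old ones, 108 (103 to 114) after AngII and 86.9 (82.4 to 91.5) in the cells labelled siPiezo1, a name kept because the latter overlapped with old cells. Xist was seen in 12.8%, 71.8%, 16.9% and 76.1% of the cells of tags 1 to 4, and Y-linked transcripts without Xist in 54.1%, 19.5%, 55.5% and 13.8%, so that age and sex cannot be told apart over all cells. Of the smooth muscle markers, Tagln lay between 415 and 957 CPM and Acta2 between 174 and 568, whereas Myh11, the myosin of mature VSMCs, was at 1.94 to 7.89. All 3 were highest in tag 2 (old), and the 9 smooth muscle markers summed to 909, 1718, 1089 and 692 CPM in tags 1 to 4. The study describes young cells as rich in Acta2, Myl9 and Tagln. Here these were higher in the tag named old than in the tag named young, and of the 9 markers only Lmod1 was lower. The fibroblast marker Dcn lay between 448 and 676 CPM, and the 6 macrophage and 6 endothelial markers summed to at most 11.7 and 8.13 CPM, with C1qa and Tie1 at 0 in every tag.

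Matrix metalloproteinases are zinc-dependent enzymes that are made as inactive proenzymes and cut collagens, proteoglycans and other matrix proteins. TIMPs bind their active site, and the ADAMTS enzymes cut proteoglycans such as aggrecan and versican, which hold water in the vessel wall. In arteries, this balance is known for its part in elastin loss, plaque stability and aneurysm.

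The members Mmp13, Mmp3 and Mmp10 lie close together on chromosome 9, on the same strand, within a row of Mmp genes. In GENCODE vM21 (GRCm38), Mmp13 (ENSMUSG00000050578) spans chr9:7272514-7283331, Mmp3 (ENSMUSG00000043613) spans chr9:7445822-7455975 and Mmp10 (ENSMUSG00000047562) spans chr9:7502352-7510240. The starts of Mmp3 and Mmp10 are 56.5 kb apart. Adamts1 (chr16:85793827-85803113) and Adamts5 (chr16:85856173-85901828) are also neighbours, both on the minus strand with 53.1 kb between them. Timp1 (chrX:20870166-20874735) lies inside Syn1 and Timp3 (chr10:86300372-86349506) inside Syn3, each on the strand opposite to its host, and the hosts were low, with 6.71 CPM for Syn1 and 7.30 for Syn3 over all cells. Timp2 (chr11:118301069-118355740) overlaps Cep295nl on the same strand, Mmp2 spans chr8:92827291-92853420 and Mmp14 spans chr14:54431612-54445364.

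Promoters from RefSeq (GRCm38.p6) were found for 8 of the 10 members, all but Mmp2 and Adamts5. The 250 bases before the RefSeq start of the chromosome 9 genes are shown because all 3 transcripts were higher after AngII over all cells, as described below. Those of Timp1, the inhibitor with the most UMIs, are shown with them. Capitals mark TGANTCA, the recognition letters of AP-1 (Fos and Jun dimers), searched on both strands, where it reads the same. All 4 sequences are on the plus strand, at chr9:7445572-7445821 for Mmp3, chr9:7502092-7502341 for Mmp10, chr9:7272264-7272513 for Mmp13 and chrX:20869916-20870165 for Timp1.
Mmp3: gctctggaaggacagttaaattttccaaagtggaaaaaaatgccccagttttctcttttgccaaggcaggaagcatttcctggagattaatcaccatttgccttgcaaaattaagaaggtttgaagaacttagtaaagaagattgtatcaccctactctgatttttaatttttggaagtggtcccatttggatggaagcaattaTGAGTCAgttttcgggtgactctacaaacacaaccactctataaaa
Mmp10: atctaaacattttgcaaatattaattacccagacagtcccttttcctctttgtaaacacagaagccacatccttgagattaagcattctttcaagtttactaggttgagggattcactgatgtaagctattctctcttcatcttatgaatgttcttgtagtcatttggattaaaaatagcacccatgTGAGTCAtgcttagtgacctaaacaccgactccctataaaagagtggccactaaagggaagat
Mmp13: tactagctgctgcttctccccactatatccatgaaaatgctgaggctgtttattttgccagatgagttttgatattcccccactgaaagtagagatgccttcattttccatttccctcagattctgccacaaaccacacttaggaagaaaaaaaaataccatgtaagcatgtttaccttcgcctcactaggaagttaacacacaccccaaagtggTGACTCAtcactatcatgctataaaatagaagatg
Timp1: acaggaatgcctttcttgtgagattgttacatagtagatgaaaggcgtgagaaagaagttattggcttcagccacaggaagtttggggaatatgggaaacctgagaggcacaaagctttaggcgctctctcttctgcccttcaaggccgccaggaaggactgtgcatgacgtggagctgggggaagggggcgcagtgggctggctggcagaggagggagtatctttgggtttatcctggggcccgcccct
The letters began 46 bases before the start in Mmp3, 63 in Mmp10 and 35 in Mmp13, and had no match in the other 5 members with a promoter. Over all 32851 promoter windows of this length, 6.75% hold them. TATAAA or its reverse complement was in 4 of the 8 member promoters (Mmp3, Mmp10, Mmp13 and Adamts1) against 12.4% of all windows, and GGAAG, the ETS core, was in all 8 against 64.1%. Mmp8, which lies next to Mmp10, had no match to TGANTCA or TATAAA in this window. TGANTCA was also found before Mmp1b, Mmp20 and 1 promoter each of Mmp12 and Mmp7. These genes of the same row on chromosome 9 had 0.559 CPM or less in every tag. The letters were thus not limited to the expressed genes of the row. The matches of these 3 motifs did not overlap in Mmp3, Mmp10 or Mmp13. A match of letters is a description and not a bound site.

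Summed over the 5 Mmp genes, young cells (tag 1) had 592 CPM (582 to 602), old cells (tag 2) 1076 (1049 to 1104), Young + AngII cells (tag 3) 915 (900 to 931) and the cells labelled siPiezo1 (tag 4) 1499 (1480 to 1518). The 3 Timp genes together had 6304, 3432, 7923 and 3330 CPM in the same order. There were thus 10.6 Timp UMIs per Mmp UMI (10.5 to 10.8) in young cells, 3.19 (3.10 to 3.28) in old cells, 8.66 (8.50 to 8.81) after AngII and 2.22 (2.19 to 2.26) in the cells labelled siPiezo1. Mmp3 supplied between 43.0% and 57.4% of the Mmp UMIs of a tag, and Timp1 between 56.7% and 71.5% of the Timp UMIs. Adamts1 and Adamts5 together had 452 CPM in young cells and 84.1, 163 and 123 CPM in tags 2 to 4. Cells with no tag, at 3.18 Timp UMIs per Mmp UMI, were near tag 2.

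**Figure D1:**
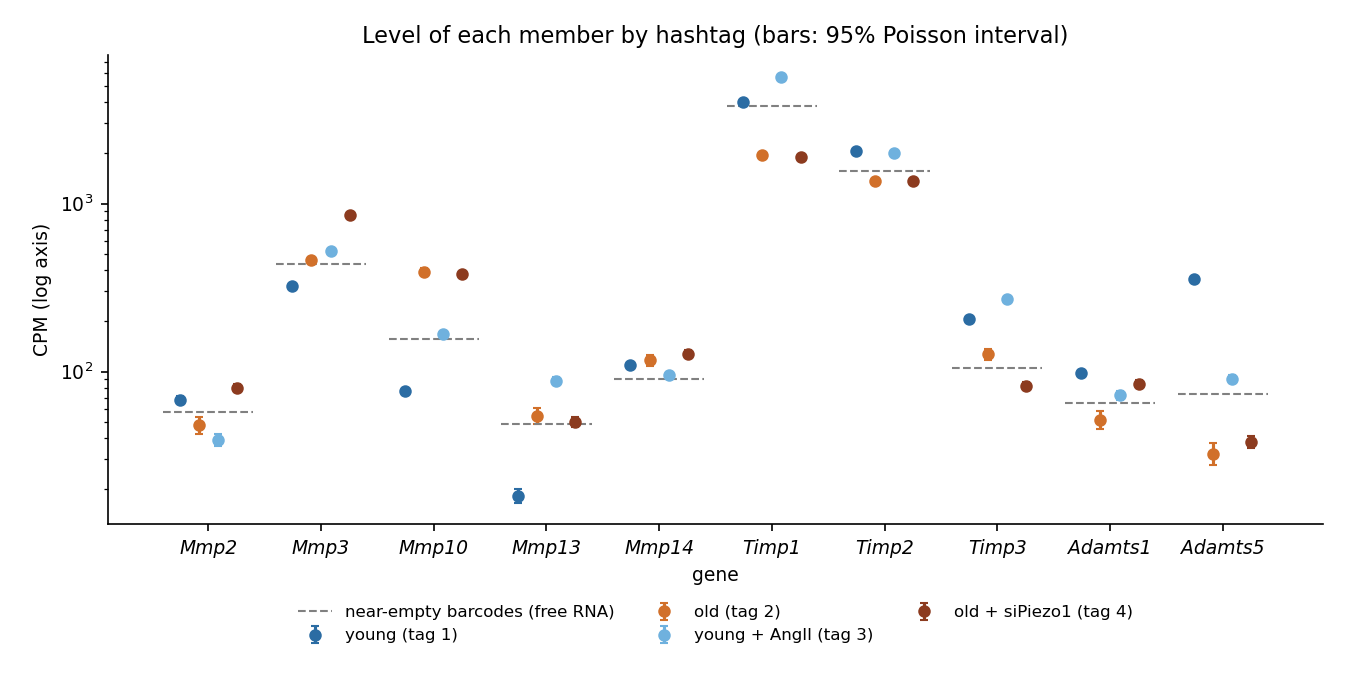
Level of the 10 members in CPM (log axis) in the 4 hashtag groups, with exact Poisson 95% intervals as bars (counting error only) and the level in near-empty barcodes as dashed lines. Mmp3, Mmp10 and Mmp13 were lowest in young cells (321, 76.4 and 18.2 CPM), where Adamts5 was highest (354 CPM).

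Mmp3, or stromelysin-1, cuts proteoglycans and activates other Mmp proenzymes. The level was 321 CPM (313 to 328) in young cells, 463 (446 to 482) in old ones, 525 (514 to 537) after AngII and 857 (843 to 871) in the cells labelled siPiezo1. None of the 4 intervals overlapped, and young cells were lowest. The level in near-empty barcodes (1 to 100 UMIs), which gives the free RNA of the pool, was 436 CPM, between tags 1 and 2. The summed CPM of the 6 fibroblast markers had the same order of tags, at 525, 545, 722 and 749, and was mostly Dcn. Pdgfra did not follow it, with 63.8, 31.0, 34.7 and 57.2 CPM, nor did Dpt, Col14a1 or Pi16, and the part of these cells in the Mmp3 levels was not tested.

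Mmp10, or stromelysin-2, is the close relative of Mmp3. Young cells had 76.4 CPM (72.9 to 79.9), old cells 394 (378 to 411), Young + AngII cells 167 (161 to 174) and the cells labelled siPiezo1 383 (374 to 393). The old cells and the cells labelled siPiezo1 overlapped and stood above both young groups. Free RNA was at 156 CPM.

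Mmp13, or collagenase-3, cuts fibrillar collagens. The level was 18.2 CPM (16.5 to 19.9) in young cells, 54.5 (48.6 to 61) in old ones, 88.4 (83.7 to 93.3) after AngII and 50.3 (46.9 to 53.9) in the cells labelled siPiezo1. Young cells were lowest and Young + AngII cells highest, while tags 2 and 4 overlapped each other and the free RNA level of 48.7 CPM (39.7 to 59.1).

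Mmp2, or gelatinase A, cuts denatured collagen and type IV collagen. Young cells had 67.9 CPM (64.7 to 71.3), old cells 47.9 (42.3 to 54.0), Young + AngII cells 39.0 (35.9 to 42.3) and the cells labelled siPiezo1 80.3 (76.0 to 84.8). Mmp14, the membrane-type enzyme that activates proMmp2 at the cell surface, varied least among the Mmp genes, from 95.2 CPM (90.3 to 100) after AngII through 109 (105 to 113) in young and 117 (108 to 126) in old cells to 128 (123 to 134) in the cells labelled siPiezo1. The order of tags in Mmp14 rested on overlapping neighbours except for tag 3, which was lowest.

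Timp1, which inhibits most soluble Mmps, was the most abundant member by UMIs. The level was 4037 CPM (4012 to 4063) in young cells, 1945 (1909 to 1982) in old ones, 5663 (5624 to 5701) after AngII and 1893 (1872 to 1914) in the cells labelled siPiezo1. Both young groups were above both old groups, which overlapped. Timp2, which inhibits Mmp2 and also takes part in its activation by Mmp14, had 2062 CPM (2044 to 2080) in young cells, 1360 (1329 to 1391) in old cells, 1989 (1967 to 2012) after AngII and 1355 (1338 to 1374) in the cells labelled siPiezo1, again with tags 2 and 4 overlapping at the lower level. Timp3, the inhibitor that binds to the matrix and also blocks ADAMTS enzymes, had 205 CPM (199 to 211) in young cells, 127 (118 to 137) in old cells, 271 (263 to 279) after AngII and 81.8 (77.4 to 86.3) in the cells labelled siPiezo1. Its 4 intervals did not overlap, and the cells labelled siPiezo1 were lowest.

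Adamts5 is the main aggrecan-cutting enzyme of mouse cartilage. Young cells had 354 CPM (346 to 361), old cells 32.5 (27.9 to 37.5), Young + AngII cells 90.3 (85.5 to 95.2) and the cells labelled siPiezo1 37.9 (35.0 to 41.1). Young cells stood apart from the 3 other groups, and tags 2 and 4 overlapped below the free RNA level of 73.5 CPM (62.3 to 86.0). Cells with no tag were at 30.4 CPM. Adamts1, which cuts versican, was highest in young cells at 97.9 CPM (94.0 to 102), lowest in old cells at 51.6 (45.8 to 58.0), and at 72.4 (68.1 to 76.8) after AngII and 84.7 (80.3 to 89.4) in the cells labelled siPiezo1. None of its intervals overlapped.

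The comparison of old with young cells asks how aging changes these transcripts. Mmp10 and Mmp13 were higher in old cells (tag 2) and Timp1, Timp2, Timp3, Adamts1 and Adamts5 were lower, taking a ratio of at least 1.5 or at most 0.667 with an interval that excludes 1. These are 2 and 5 of the 10 members, where 10.0% of the 12503 genes tested (at least 50 UMIs over both tags) were higher and 12.5% lower, or 22.5% in either direction. All 10 members had enough UMIs, and their median ratio was 0.682, against 1.02 for all genes tested. Mmp10 was at 5.16 times the young level (4.85 to 5.49), above 99.8% of the genes tested. For Mmp13 the ratio was 3.0 (2.58 to 3.48). Adamts5 was at 0.0917 of the young level (0.0787 to 0.106), or 10.9 times lower, with 1.19% of the genes tested at or below it.

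The inhibitors differed less. The old to young ratio was 0.482 for Timp1 (0.472 to 0.491), 0.659 for Timp2 (0.644 to 0.676) and 0.622 for Timp3 (0.574 to 0.673). Timp2 was close to the threshold, and the calls of Timp2 and Timp3 ended under a stricter tag rule (highest tag at least 3 times the next), at 0.694 and 0.835, with doubled tag cutoffs, at 0.763 and 0.873, and in cells without Mki67 or Top2a transcripts, at 0.670 and 0.713. The Timp2 call also ended in cells of at least 5000 UMIs, at 0.672. Adamts1 had a ratio of 0.527 (0.465 to 0.596). Mmp2 (0.705, 0.617 to 0.803) and Mmp14 (1.07, 0.982 to 1.17) were not past the threshold.

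Mmp3 had an old to young ratio of 1.45 (1.38 to 1.51), short of the threshold, and its direction turned with the rule for tags. It was 0.755 with the stricter rule, which left 179 old cells, and 0.792 with doubled cutoffs, but 1.74 and past the threshold without cells called doublets. The Mmp3 ratio was also past the threshold in cells thinned to 5000 UMIs each, at 1.64 (1.53 to 1.75). So it was as a mean of each cell's own CPM (1.64) and in cells with 1 to 20% mitochondrial UMIs (1.58). Cells with Y-linked transcripts and no Xist had ratios of 8.76 for Mmp10, 4.53 for Mmp13 and 0.0895 for Adamts5 (97 old cells). In cells with Xist and no Y-linked transcript (154 young and 313 old cells), the ratios were 1.57 for Mmp10 (1.41 to 1.75), 1.29 for Mmp13 (0.966 to 1.73) and 0.196 for Adamts5 (0.153 to 0.251). The calls of Mmp13, Timp2, Timp3 and Adamts1 ended in the latter cells, and Mmp3 was at 0.837 there. Old cells with Y-linked transcripts and young cells with Xist were minorities of their tags, and whether they were tagged correctly was not tested.

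**Figure D2:**
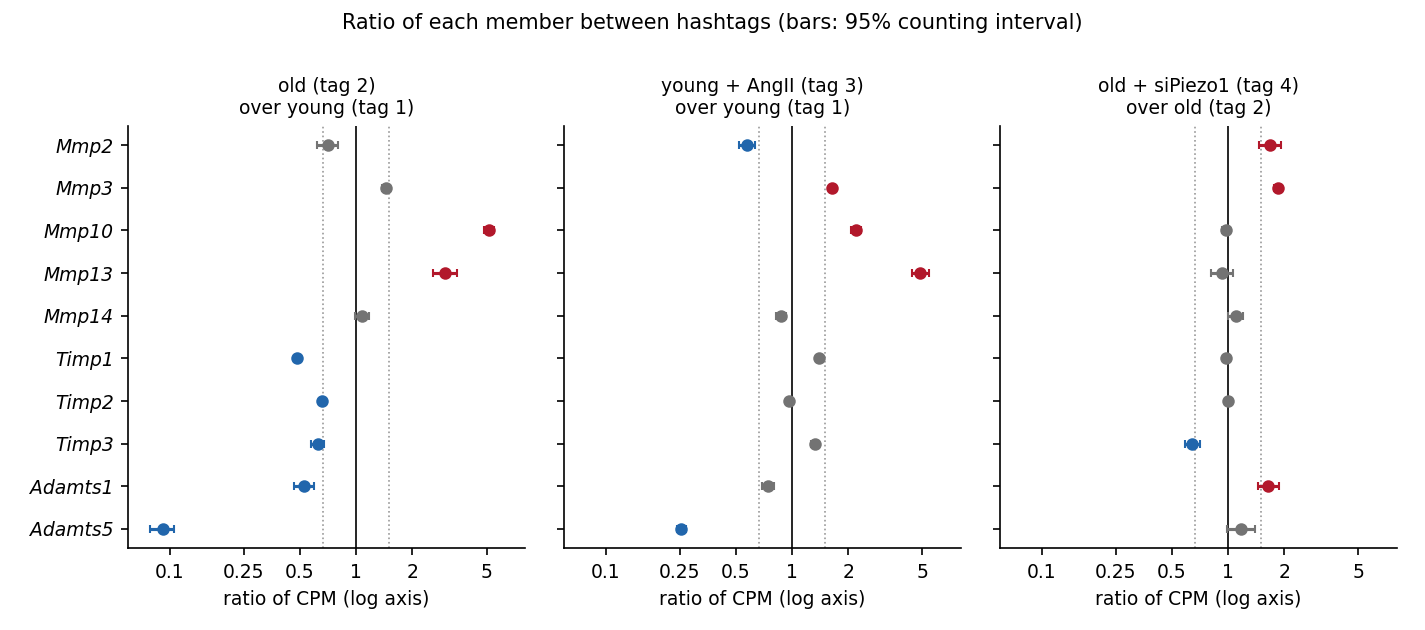
Ratio of CPM of each member between hashtag groups (log axis) with 95% counting intervals as bars. Red and blue points are past 1.5-fold (dotted lines) upward and downward and grey points are not: Mmp10 and Mmp13 were higher in old and in Young + AngII cells, and Adamts5 was lower in both.

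The comparison of Young + AngII with young cells shares the young cells with the one above, so that the 2 sets of ratios are not independent. Mmp3, Mmp10 and Mmp13 were higher after AngII, the peptide hormone that constricts vessels, and Mmp2 and Adamts5 were lower. These are 3 and 2 of the 10 members, where 8.50% of the 12931 genes tested were higher and 11.2% lower, or 19.7% in either direction. Mmp13 was at 4.87 times the young level (4.37 to 5.44), above 99.7% of the genes tested. The ratio was 2.19 for Mmp10 (2.06 to 2.33), 1.64 for Mmp3 (1.59 to 1.69), 0.575 for Mmp2 (0.522 to 0.632) and 0.255 for Adamts5 (0.241 to 0.270).

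The inhibitors were not past the threshold after AngII, with ratios of 1.40 for Timp1 (1.39 to 1.42), 0.965 for Timp2 (0.951 to 0.979) and 1.32 for Timp3 (1.27 to 1.38). Adamts1 had 0.739 (0.687 to 0.795) and Mmp14 had 0.873 (0.818 to 0.931). The Mmp3 call ended with doubled tag cutoffs (1.29) and in cells without Mki67 or Top2a transcripts (1.35). The median share of mitochondrial UMIs was 0.224% in Young + AngII and 1.08% in young cells, and Mmp10 was at 3.36 in cells with 1 to 20% (408 AngII cells). All 5 calls held in cells with Y-linked transcripts and no Xist (833 AngII and 1700 young cells). The ratios there were 2.89 for Mmp10 (2.63 to 3.18), 6.54 for Mmp13 (5.55 to 7.73) and 1.81 for Mmp3 (1.73 to 1.89). Cells with Xist and no Y-linked transcript were a minority of both tags (94 AngII and 154 young cells, chosen after seeing the data). Among these, Mmp10 was at 0.657 of the young level (0.551 to 0.782) and Mmp13 at 2.28 (1.66 to 3.15). The Mmp3 call ended there (interval 0.902 to 1.11).

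The comparison of the cells labelled siPiezo1 with old cells asks what loss of Piezo1 does in old VSMCs, with the limit that Piezo1 itself does not check the label. Mmp2, Mmp3 and Adamts1 were higher and Timp3 was lower, 3 and 1 of the 10 members, where 2.93% of the 11836 genes tested were higher and 1.84% lower, or 4.77% in either direction. Mmp3 was at 1.85 times the old level (1.77 to 1.93), above 98.5% of the genes tested. The ratio was 1.68 for Mmp2 (1.47 to 1.92), 1.64 for Adamts1 (1.44 to 1.87) and 0.641 for Timp3 (0.585 to 0.704).

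Mmp10 and Adamts5, with the largest and the smallest old to young ratio of the members, were not past the threshold between the cells labelled siPiezo1 and old cells, at 0.973 (0.927 to 1.02) and 1.17 (0.989 to 1.39). Timp1 (0.973, 0.952 to 0.995), Timp2 (0.997, 0.971 to 1.02), Mmp13 (0.923, 0.808 to 1.06) and Mmp14 (1.10, 1.0 to 1.20) were not past the threshold either. In cells with Y-linked transcripts and no Xist (211 and 97 cells), the siPiezo1 to old ratio of Mmp3 was 0.970 (0.866 to 1.09), that of Mmp2 was 1.03 (0.758 to 1.40) and that of Timp3 was 0.899 (0.735 to 1.10), and these calls ended. In the same cells Mmp10 (0.587, 0.520 to 0.662) and Adamts5 (1.78, 1.25 to 2.60) passed the threshold, so that Adamts1 (2.69, 1.98 to 3.73) was the single call shared with that over all cells. Most cells of both tags had Xist, however. In those with Xist and no Y-linked transcript (1021 and 313 cells, chosen after seeing the data), the Mmp2, Mmp3 and Timp3 calls held. The Adamts1 call ended there, at 1.48 (1.26 to 1.75), where 3.58% of 10952 genes were higher and 2.19% lower. With the stricter tag rule (482 and 179 cells), Mmp3 was at 3.56 and Timp3 at 0.415, but the Adamts1 call ended, at 1.42 (1.17 to 1.74), as it did with doubled cutoffs (1.33).

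The members also differed in how they were spread over cells. In cells thinned to 5000 UMIs each (2397, 476, 1364 and 1415 cells in tags 1 to 4), Timp1 and Timp2 were found in at least 95.8% and 98.3% of the cells of each tag. Mmp3 was found in 38.5% of young cells (36.6 to 40.5), 48.7% of old cells (44.2 to 53.3), 47.7% of Young + AngII cells (45 to 50.3) and 66.1% of the cells labelled siPiezo1 (63.5 to 68.5). Before thinning these shares were 43.6%, 59.6%, 57.9% and 73.2%. No cell type that should lack the gene was at hand for comparison.

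Mmp3 was spread unevenly over cells. If every cell had the mean level of its tag, Poisson counts would leave 20.3%, 7.33%, 6.68% and 0.978% of the cells without an Mmp3 UMI, whereas 61.5%, 51.3%, 52.3% and 33.9% had none. The 10% of cells with most Mmp3 UMIs held 66.3% of them among young cells and 47.6% in the cells labelled siPiezo1, with up to 63 UMIs in a thinned cell. Mmp10 was found in 15.6%, 45.6%, 28.2% and 44.1% of the thinned cells of tags 1 to 4, and its top 10% of cells held between 61.6% and 83.0% of its UMIs. Mmp14 lay at the other end, with 59.7% of young cells at 0 where Poisson counts give 58.1%, and a variance of 0.973 to 1.13 times its mean. Adamts5 was found in 62.8% of young cells (60.8 to 64.7), 11.3% of old cells (8.64 to 14.5), 24.8% of Young + AngII cells (22.5 to 27.2) and 12.4% of the cells labelled siPiezo1 (10.8 to 14.3).

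**Figure D3:**
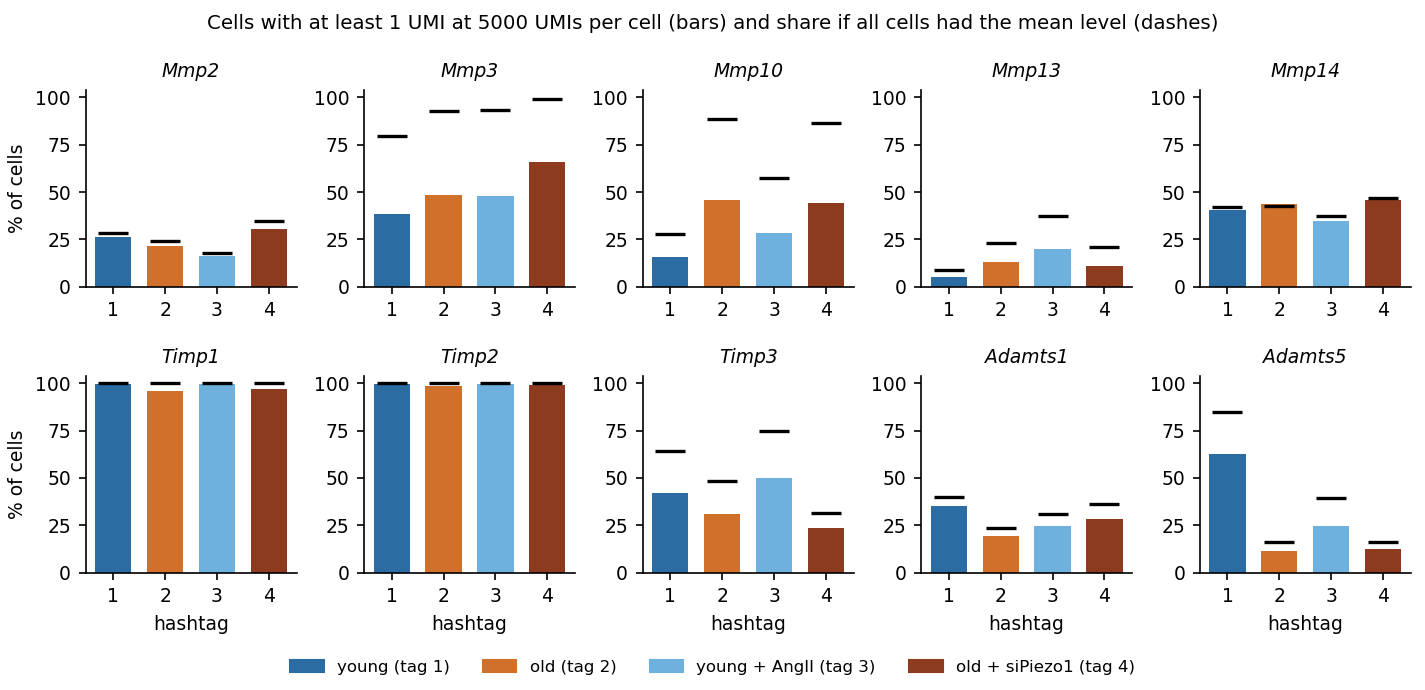
Share of cells with at least 1 UMI of each member after thinning to 5000 UMIs per cell (bars, by hashtag) and the share that Poisson counts would give if all cells of the tag had the same level (dashes). Bars of Mmp3, Mmp10, Mmp13, Timp3 and Adamts5 fall short of the dashes, while Mmp14 meets them (40.3% of young cells).

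Over single cells within a tag, the 45 pairs of members were weakly correlated, and 40 of them had a Pearson r of size under 0.2 in all 4 tags (log counts of thinned cells, given as a description because the cells share 1 library). Among the highest, Timp1 with Timp2 had r between 0.28 and 0.33, Mmp3 with Mmp10 between 0.24 and 0.26, and Mmp10 with Mmp13 between 0.17 and 0.29. Mmp3 with Timp1 had r between -0.16 and -0.13. Mmp3 was seen in 59.1% (53.9 to 64.1) of the young cells with an Mmp10 UMI and in 34.8% (32.7 to 36.9) of those without, and in tag 4 in 75.2% (71.6 to 78.5) and 58.9% (55.4 to 62.4). Mmp10 was seen in 47.0% (41 to 53.2) of the Young + AngII cells with an Mmp13 UMI and in 23.6% (21.1 to 26.2) of those without. For Mmp3 given Mmp13 the intervals overlapped in tag 2, at 59.7% (46.4 to 71.9) and 47.1% (42.2 to 52), and in tag 4, at 71.9% (64.1 to 78.9) and 65.4% (62.7 to 68.0). Adamts5 was seen in 72.5% (69.3 to 75.5) of the young cells with an Adamts1 UMI and in 57.5% (55.0 to 60.0) of those without.

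Cells were clustered without any Mmp, Timp or Adamts gene, which gave 12 clusters. Cluster 5 (726 cells) was VSMC-like, with Cnn1, Acta2, Myl9, Lmod1 and Tagln among its 10 leading genes, and cluster 2 (1985 cells) was dividing cell-like, led by Hist1h1b and Mki67, while the others are named by number and leading gene. Doublet calls made up 81.9% of cluster 4 (1427 cells), whose 10 leading genes included Mmp13. Mmp13 was not particular to cluster 4, at 60.7 CPM against 47.5 over all cells and 70.1, 80.0 and 84.8 in clusters 3, 5 and 6. Clusters followed the tags, so that cluster 1 (led by Ifit3) held 1909 young cells and 3 old cells.

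Mmp3 was highest in cluster 9 (446 cells, led by Lmo7), at 1772 CPM, ahead of cluster 2 at 840, and lowest in cluster 7 (led by Cdkn3) at 162. Of the cells of cluster 9, 289 carried tag 4 and 6 tag 2, and 96.4% had Xist. Without cluster 9 (an alternative chosen after seeing the data) the siPiezo1 to old ratio of Mmp3 was 1.56 and that of Timp3 was 0.704, which ended the Timp3 call. Mmp10 was highest in the VSMC-like cluster 5, at 480 CPM, followed by cluster 0 (led by Clu) at 379, and lowest in cluster 7 at 26.9. Mmp13 was highest in cluster 6 (led by Ccne2) at 84.8 CPM and cluster 5 at 80.0. Cluster 5 as a whole had 276 CPM of Mmp3, against 595 over all cells. Its 78 old cells had 213 CPM (185 to 245), below the 463 CPM of old cells as a whole.

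Adamts5 was highest in clusters 1 and 7, at 449 and 369 CPM, whose tagged cells were mostly young. It was at 87.4 CPM in cluster 10, which held 138 young cells of 181 in all, and at 5.30 CPM in cluster 8 (led by Prl8a9, with a low median depth of 3279 UMIs). Timp1 ranged from 1270 CPM in cluster 9 to 6178 in cluster 3 (led by Lce1g), and Timp2 from 911 CPM in cluster 11 to 2428 in cluster 10. Timp3 was highest in cluster 6 at 278 CPM, and Adamts1 in cluster 1 at 125. Mmp2 was highest in cluster 9 at 124 CPM. Mmp14 had the narrowest range of the 10 members over the clusters, from 55.3 CPM in cluster 8 to 131 in cluster 0.

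**Figure D4:**
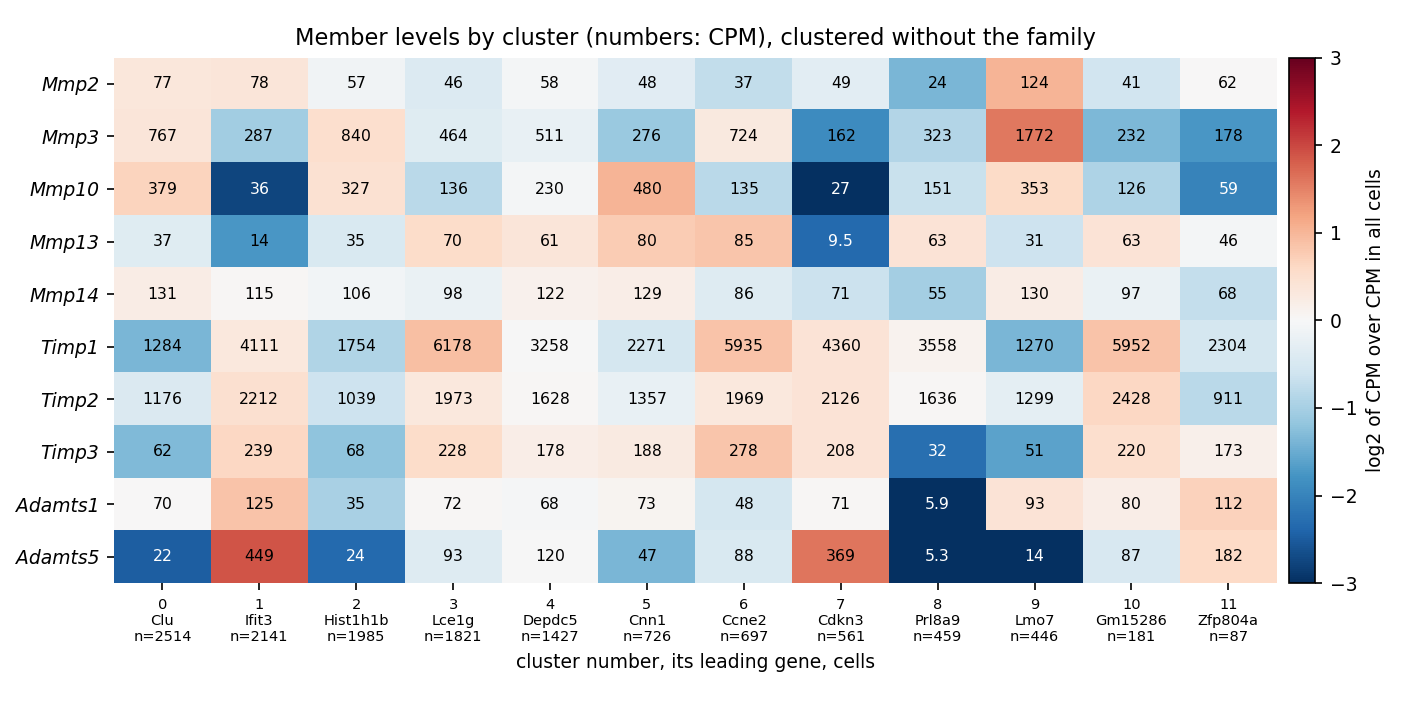
CPM of each member (printed) in 12 clusters made without the family, coloured by the log2 ratio to the level in all cells. Mmp3 peaks in cluster 9 (1772 CPM), Mmp10 in cluster 5 (480 CPM) and Adamts5 in cluster 1 (449 CPM).

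Few clusters held at least 50 cells of both groups of a comparison, and within them some ratios moved. Between old and young cells this was so for clusters 0 and 4, the latter mostly doublet calls. Cluster 0 held 214 old cells and 52 of the 3144 young cells, and cluster 4 held 52 old and 357 young cells. Clusters 1 and 7, with 1909 and 525 young cells, held too few old cells to be compared. The ratios within clusters thus leave out most young cells. Mmp10 stayed above 1 in both but came down from 5.16 to 1.72 (1.43 to 2.07) and 1.95 (1.69 to 2.23), and Mmp13 was at 1.73 (0.944 to 3.46) and 2.77 (2.08 to 3.67). Adamts5 stayed below 1, at 0.395 (0.208 to 0.779) and 0.155 (0.10 to 0.231). Mmp3 was lower in the old cells of both, at 0.724 (0.649 to 0.810) and 0.478 (0.407 to 0.559). Timp1 was at 0.820 (0.754 to 0.893) and 0.968 (0.926 to 1.01), and Timp2 at 0.991 (0.902 to 1.09) and 1.04 (0.979 to 1.10), closer to 1 than over all cells. Timp3 was at 1.0 (0.680 to 1.52) and 0.690 (0.549 to 0.858), and Adamts1 at 0.967 (0.611 to 1.59) and 0.728 (0.508 to 1.02).

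After AngII, Mmp13 was at 2.52 (1.62 to 4.15) and 2.97 (2.40 to 3.69) in clusters 3 and 4, and Mmp3 at 1.62 (1.39 to 1.91) and 1.34 (1.24 to 1.44). Cluster 3 held 840 Young + AngII but only 69 young cells, and cluster 4 held 144 and 357. For the cells labelled siPiezo1 against old cells, the Mmp3 ratio was near 2 in clusters 2, 4 and 5, at 2.12 (1.95 to 2.30), 2.0 (1.70 to 2.36) and 2.17 (1.83 to 2.57), but 0.937 (0.880 to 0.998) in cluster 0. Mmp10 went both ways, at 2.49 (2.17 to 2.86) in the VSMC-like cluster 5 (85 and 78 cells) but 0.813 (0.755 to 0.877) in cluster 0, 1.03 (0.937 to 1.14) in cluster 2 and 0.796 (0.691 to 0.919) in cluster 4. Mmp13 likewise was at 3.20 (2.32 to 4.47) in cluster 5 and 0.684 (0.529 to 0.890) in cluster 0. Timp3 was at 0.472 (0.374 to 0.592) in cluster 5, with 0.919 (0.755 to 1.12) in cluster 0, 0.799 (0.643 to 0.997) in cluster 2 and 1.29 (1.02 to 1.64) in cluster 4. Adamts1 was above 1 in all 4 of the clusters compared, from 1.48 to 2.17.

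**Figure D5:**
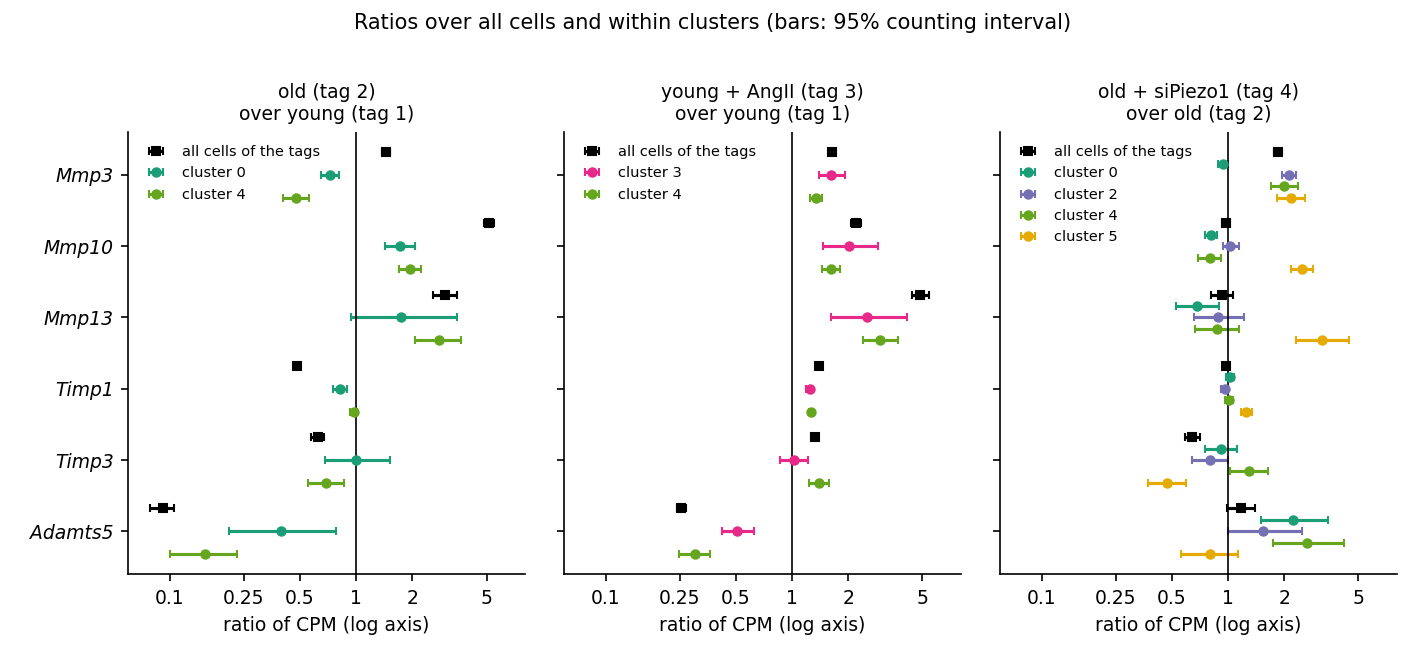
Ratio of CPM between hashtag groups over all their cells (black squares) and within each cluster holding at least 50 cells of both (circles), with 95% counting intervals as bars and a log axis. The Mmp3 ratio of old over young cells was 1.45 over all cells but 0.724 and 0.478 within clusters 0 and 4.

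Across 18 units of 1 cluster and 1 tag with at least 50 cells, the genes most like each member in log2 level were found among 3287 genes. For Mmp10 these were Mcpt8 (r = 0.95), Sema3a (0.95) and Odc1 (0.94), and for Mmp3 they were Spred1 (0.89), Immp2l (0.89) and Stk3 (0.87). Timp1 was most like Cryab (0.96), Timp3 most like Csf1 (0.94) and Adamts5 most like Tor1aip2 (0.95). The units share 1 library and are not independent.

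Other genes of the system were counted from fixed lists. Of 17 further Mmp genes in the matrix, 5 reached 10 CPM in a tag: Mmp8, Mmp11, Mmp16, Mmp19 and Mmp23. Mmp8, or neutrophil collagenase, which lies next to Mmp10, had 10.5 CPM in young cells, 54.7 in old cells, 9.44 after AngII and 41.2 in the cells labelled siPiezo1. It was thus 5.21 times higher (4.4 to 6.18) in old than in young cells, like Mmp10, but was at 0.900 (0.727 to 1.11) after AngII. Mmp23 was lower both in old cells (0.384, 0.325 to 0.452) and after AngII (0.333, 0.297 to 0.372), and Mmp16 was higher in the cells labelled siPiezo1 than in old cells (1.62, 1.41 to 1.88). Timp4 had too few UMIs to be tested. In all, 1 of 6 further Mmp genes tested was higher and 1 lower in old cells, none of 7 higher and 2 lower after AngII, and 1 of 5 higher and none lower in tag 4 against tag 2. The shares of all genes tested were 10.0% and 12.5%, 8.50% and 11.2%, and 2.93% and 1.84%.

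Of 17 further Adamts genes, 7 reached 10 CPM: Adamts2, Adamts4, Adamts6, Adamts7, Adamts9, Adamts10 and Adamts12. Adamts2, which trims procollagen, stood at 137 CPM in young cells, 23.3 in old cells (ratio 0.170, 0.142 to 0.203) and 64.3 after AngII (0.470, 0.437 to 0.505). Adamts4, the other aggrecan-cutting enzyme, was low in young cells, at 6.22 CPM, and reached 18.5 CPM in old ones (ratio 2.97, 2.29 to 3.84), opposite to Adamts5. Adamts6 was lower in old cells (0.486, 0.436 to 0.541) and Adamts9 lower after AngII (0.326, 0.283 to 0.375). Of 9 tested, 2 were higher and 3 lower in old cells, 1 higher and 3 lower after AngII, and none differed past the threshold between tags 4 and 2, beside 10.0% higher and 12.5% lower, 8.50% and 11.2%, and 2.93% and 1.84% of all genes tested. Among the Adamts-like genes, Adamtsl5 alone reached 10 CPM, and 2 of 3 tested were lower in old cells.

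Of 16 tested genes of activation, inhibition and clearance, 3 were higher and 5 lower in old cells, 5 higher and 2 lower after AngII, and 1 higher and 1 lower in tag 4 against tag 2, where 22.5%, 19.7% and 4.77% of all genes tested were past the threshold in either direction. Plau, the urokinase that makes plasmin and so activates proMmps, went from 3.90 CPM in young cells to 19.9 in old ones (ratio 5.11, 3.85 to 6.79). Plat, whose product also makes plasmin, went the other way, from 24.1 to 11.7 CPM (0.483, 0.368 to 0.625). Plat was also lower after AngII (0.228, 0.178 to 0.287) and higher in tag 4 than in tag 2 (1.67, 1.27 to 2.21). Reck, a membrane inhibitor of Mmps, was lower in old cells (0.542, 0.384 to 0.749) and after AngII (0.661, 0.537 to 0.808). Tfpi2 (2.09, 1.92 to 2.28), Cd44 (1.68, 1.63 to 1.74) and Sdc1 (1.56, 1.43 to 1.70) were higher after AngII. Sdc4 was lower in old cells (0.363, 0.344 to 0.383). Furin, Bsg, Lrp1, Plaur and Itgav were not past the threshold in any of the 3 comparisons. Of 6 membrane ADAMs (Adam9, Adam10, Adam12, Adam15, Adam17 and Adam19), Adam12 was lower in old than in young cells (0.518, 0.477 to 0.562) and lower again in tag 4 (0.663, 0.602 to 0.730), and the others were not past the threshold.

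Among 14 tested inducers of Mmp genes, Fosl1, a subunit of AP-1, had 63.1 CPM in young cells, 99.7 in old cells, 97.4 after AngII and 106 in the cells labelled siPiezo1. Its ratio to young was 1.58 (1.43 to 1.74) in old cells and 1.55 (1.44 to 1.66) after AngII, the single inducer past the threshold upward in either. Fos was lower in both, at 0.472 (0.415 to 0.534) and 0.365 (0.333 to 0.400), and Fosb (0.310), Jun (0.540), Jund (0.572) and Il1r1 (0.499) were lower after AngII. None of the 14 was past the threshold between tags 4 and 2, where 4.77% of all genes tested were. In old over young cells and after AngII, 22.5% and 19.7% of all genes tested were past it in either direction. Fosl2, Junb, Ets1, Ets2, Runx2, Nfkb1, Rela and Il6 were not past it in any of the 3 comparisons.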

How the data were processed

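The authors deposited an unfiltered matrix of raw UMI counts from 1 droplet library, with 32285 genes, 4 hashtags and 2472397 barcodes. The submitters' processing notes name Cell Ranger and Seurat. The build of the alignment was not given in the sources used here. Positions were looked up by Ensembl identifier in GENCODE vM21 (GRCm38), and promoters by symbol in RefSeq (GRCm38.p6). The members and lists were chosen with earlier results of these data known.

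Barcodes were kept as cells from 200 genes upward if their UMIs reached a minimum set at 1/10 of the 99th percentile over the 10000 deepest. It was given a tag if only that tag exceeded its cutoff (36, 52, 61 and 41 UMIs for tags 1 to 4). CPM is the summed UMIs of a gene over all UMIs of the cells, scaled to 1000000, with exact Poisson 95% intervals. Ratios carry exact binomial and shares of cells exact Clopper-Pearson 95% intervals. They cover counting error only, since cells are not replicates. The calculation was run on simulated Poisson counts, the model that the intervals assume, so that this run could not test them against the spread between cells. Over thinned cells the variance of Mmp3 was between 9.88 (tag 1) and 11.9 (tag 2) times its mean, which the intervals leave out. A gene was tested if it had 50 UMIs over both tags. Near-empty barcodes had 1 to 100 UMIs. Thinning drew 5000 UMIs per cell, and shallower cells (747, 21, 136 and 114 in tags 1 to 4) were left out.

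Clusters came from Seurat 5.3.0 (R 4.3.3; 2000 variable genes, 30 components, 20 neighbours, resolution 0.8) without 50 Mmp, Timp and Adamts genes. Scrublet in scanpy 1.11.5 called 23.4% of cells doublets at an expected rate of 0.1, and they were kept. All 10 members are named, and genes of the fixed lists with at least 10 CPM in a tag, of which 1 is not reported here. Alternatives were other depth, tag and doublet rules, thinning, cells chosen by sex-linked transcripts, mitochondrial and cell cycle limits, means over cells, removal of free RNA and centring. Leaving out clusters 4 or 9 and the restriction to cells with Xist were added after seeing the data.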

Additional observations from a re-analysis of the deposited data

How the results depend on the processing

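No paired analysis was possible because each group is 1 culture, and for the same reason no replicate could be left out. Over 15 alternatives, 450 ratios of members were recomputed, of which 293 moved by no more than the counting interval of the reported ratio, 155 moved further and 2 turned from past the threshold to the other side of 1. These 2 were Mmp3 in tag 4 over tag 2, at 0.970 in cells with Y-linked transcripts and no Xist, and Mmp10 in tag 3 over tag 1, at 0.657 in cells with Xist and no Y-linked transcript (chosen after seeing the data). Calls changed in 32 cases. The number of members past 1.5-fold in old over young cells dropped from 7 to 3 in the cells with Xist, where 2.44% of 8431 genes were higher and 4.8% lower. It stayed between 5 and 8 under the other alternatives. In the same cells with Xist, 3.27% of genes were higher and 4.03% lower after AngII. In the cells with Y-linked transcripts, 3.45% of 7270 genes were higher and 2.93% lower in tag 4 than in tag 2. The count of members for Young + AngII over young cells lay between 4 and 6, though with other members in the cells with Xist (Mmp13 and Timp3 higher, Mmp10 and Adamts5 lower). For tag 4 over tag 2 the count lay between 3 and 4, though with other members in the cells with Y-linked transcripts (Adamts1 and Adamts5 higher, Mmp10 lower). Removing doublets gave 8.71 for Mmp10 and 0.0726 for Adamts5 in old over young cells and 7.63 for Mmp13 after AngII. Leaving out cluster 4 gave 7.65 for that Mmp10 ratio. Depth limits what could be seen of genes with few UMIs, and the 497 old cells limit both comparisons that use them. The causes of these changes were not tested.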
